A study of Mus musculus with 12 samples.

Results

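The genes described here are 10 genes of Langerhans cells, the dendritic cells of the epidermis, and of antigen presentation by MHC class II: Cd207, Cd74, H2-Aa, H2-Ab1, H2-Eb1, H2-DMa, H2-DMb1, Ciita, Cd86 and Itgax. They were chosen by symbol, with no measured value in the rule but with earlier results of these data known. All 10 are among the 14533 genes of the deposited count table. RNA was sequenced from epidermis of non-lesional dorsal skin of 12 untreated C57BL/6 mice, with 1 library per mouse. All 12 mice carried floxed Pparg alleles (flox/flox). The 6 Pparg-/-epi mice were Cre+/- for a Cre recombinase under the cytokeratin 14 promoter, which acts in basal keratinocytes and in what descends from them. The 6 WT mice were siblings without Cre (Cre-/-). WT mice, 3 female and 3 male, were 8 to 13 weeks old by the labels, and so were the 4 female and 2 male Pparg-/-epi mice. The ages of WT replicate 2 and Pparg-/-epi replicate 10 are in doubt. Langerhans cells do not descend from keratinocytes, and whether Pparg was deleted in them was not measured. Frozen skin was scraped down to the vessels of the upper dermis, so RNA of dermal cells can be in the libraries. The names of 5 of the 6 WT mice carry a breeding number that no Pparg-/-epi mouse has, and 4 of these 5 share the same number. For 2 of the Pparg-/-epi mice the labels give no mouse name. Their count columns, matched through the library number, carry a breeding number that no WT mouse has.

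Pparg itself, the targeted gene, had 59, 269, 5, 15, 58 and 13 counts in WT replicates 1 to 6 and 100, 107, 89, 16, 32 and 25 counts in Pparg-/-epi replicates 7 to 12. Recombination removes part of the gene and leaves a shorter transcript, and the counts cover the whole gene, so they do not check the genotype. Xist, the RNA of the inactive X chromosome, was 1261 to 2748 CPM in the 7 female mice and 0.237 to 1.37 CPM in the 5 male mice, as the sex labels have it. CPM are counts scaled to a common library total with TMM factors. Total counts were 10120840 to 16947632 among WT libraries and 11272135 to 18851255 among Pparg-/-epi libraries (exact permutation test, two-sided, p = 0.965). A floor of 3 counts corresponds to 0.156 CPM in the deepest and 0.320 CPM in the shallowest library. The lowest count of any of the 10 genes in any mouse was 107, so all 10 were measured well above that floor.

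MHC class II molecules are pairs of an alpha and a beta chain that carry peptides from endosomes to the cell surface, where CD4 T cells read them. Newly made pairs are held by the invariant chain until proteases degrade it, and a peptide editor then helps a fitting peptide to bind. In resting skin, Langerhans cells are the main class II bearing cells of the epidermis, while macrophages and other dendritic cells carry class II in the dermis. Mature dendritic cells add costimulatory ligands and leave for the lymph node. Among the 10 genes, Cd207 codes for langerin, the lectin of Birbeck granules. Cd74 codes for the invariant chain. H2-Aa and H2-Ab1 code for the alpha and beta chains of I-A, and H2-Eb1 for the beta chain of I-E. H2-DMa and H2-DMb1 code for the chains of the peptide editor. Ciita is the coactivator that class II genes depend on, Cd86 is a ligand of CD28, and Itgax codes for CD11c, an integrin chain of dendritic cells and some macrophages.

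In mm10, the assembly used for the counts, Cd207 lies on chromosome 6 from 83671207 to 83677857, Itgax on chromosome 7 from 128129568 to 128150657 and Cd74 on chromosome 18 from 60803849 to 60812652. Ciita and Cd86 are both on chromosome 16, from 10480072 to 10527640 and from 36603869 to 36666077. The 5 H2 genes lie together on chromosome 17.

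None of the 10 genes was altered in Pparg-/-epi mice (0 of 10), where altered means a difference of 0.6 or more on the log2 scale, up or down, together with an adjusted p under 0.05, by edgeR's quasi-likelihood test over all genes. In the same test 1493 of 14533 genes (10.3%) were altered. The likelihood ratio test of edgeR also altered 0 of the 10, against 11.8% of all genes, and DESeq2 altered 0 against 12.4% of the 14443 genes to which it gave an adjusted p. With an unadjusted p under 0.05 in the quasi-likelihood test there were 2 of the 10 genes, Itgax and H2-DMb1, against 29.5% of all genes. In none of the 10 did the CPM of the groups separate without overlap (0 of 10, against 7.9% of all genes). The median log2 fold change over the 10 genes was -0.09, and that over all genes was -0.01. In bulk RNA, a lower or higher level can come from fewer or more cells of a type or from less or more RNA per cell, and these cannot be told apart.

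**Figure D1:**
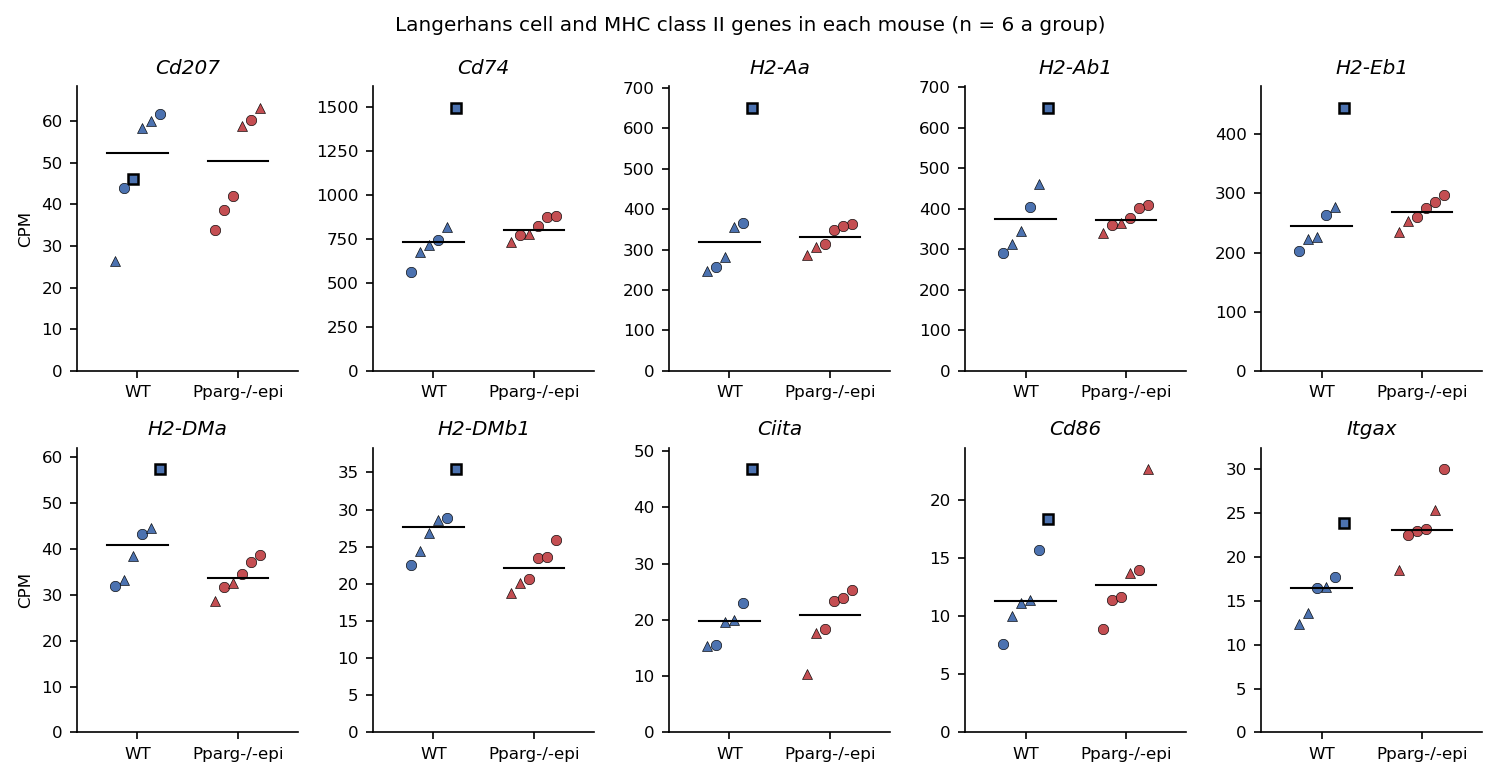
Level of each of the 10 genes in CPM (vertical axes from 0) in 6 WT mice (blue) and 6 Pparg-/-epi mice (red), with circles for females, triangles for males, black lines for medians and a square for WT replicate 2, a female. The groups overlap in every panel, and the square is the highest WT value in 9 of the 10 genes, Cd207 being the exception.

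Cd207, the Langerhans cell lectin, was 26.3 CPM in the lowest, 52.2 in the median and 61.6 in the highest WT mouse, and 33.9, 50.4 and 63.1 CPM in Pparg-/-epi mice. The lowest value was that of WT replicate 1 and the highest that of Pparg-/-epi replicate 12, and in each group some mice lay near 60 CPM and others near or below 45 CPM. The fitted log2 fold change was 0.00 (SE 0.22, adjusted p = 0.996, n = 6 mice a group), with a 95% interval from -0.46 to 0.47. Of the 6 Pparg-/-epi mice 3 lay above and 3 below the WT median. Among the Pparg-/-epi mice, replicates 7, 8 and 9, all females, had the 3 lowest values. Their breeding numbers, 192 and 195, are not those of replicate 10 or of the count columns of replicates 11 and 12. A relation of breeding number to Cd207 within the group was not tested. Replicate 11, also a female, had 60.1 CPM. RIN, the RNA integrity number, was 8.6, 8.5 and 7.7 in replicates 7, 8 and 9 and 7.7, 5.7 and 7.1 in replicates 10, 11 and 12, and with RIN as a covariate the log2 fold change of Cd207 was 0.13 (adjusted p = 0.715). The sign of so small a difference depended on the mice included, from -0.14 without WT replicate 1 to 0.08 without WT replicate 4 when 1 mouse was left out. It was -0.21 among females alone, and the largest shift was to 0.46 (SE 0.30, adjusted p = 0.428) with only the 2 WT mice of other breeding numbers, replicates 1 and 2, as controls.

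Cd74, the invariant chain, was 561, 730 and 1493 CPM in the lowest, median and highest WT mouse, and 734, 800 and 880 CPM in Pparg-/-epi mice. WT replicate 2 stood far above the remaining WT mice, which lay between 561 and 815 CPM. All 6 Pparg-/-epi mice lay above the WT median and below WT replicate 2. The log2 fold change was -0.04 (SE 0.20, adjusted p = 0.915), with a 95% interval from -0.48 to 0.39, and 0.19 without WT replicate 2. The adjusted p of Cd74 ran from 0.214, without that mouse, to 0.970 over the alternative fits. The Pparg-/-epi mice differed little among themselves, with a coefficient of variation of 7.34%, while it was 40.0% in WT mice and 13.3% in the 5 WT mice other than replicate 2. The difference in spread was not tested.

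The chains of I-A varied in the same way. H2-Aa was 248, 318 and 650 CPM in the lowest, median and highest WT mouse and 286, 331 and 363 CPM in Pparg-/-epi mice. H2-Ab1 was 292, 375 and 649 CPM in WT and 339, 372 and 411 CPM in Pparg-/-epi mice. In both genes the Pparg-/-epi mice fell inside the WT range, with 3 above and 3 below the WT median. The log2 fold change was -0.13 for H2-Aa (SE 0.21, adjusted p = 0.741) and -0.13 for H2-Ab1 (SE 0.17, adjusted p = 0.676). Without WT replicate 2, which was the highest mouse for each of them, the values were 0.11 for H2-Aa and 0.04 for H2-Ab1.

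H2-Eb1, the beta chain of I-E, was 202, 245 and 444 CPM in the lowest, median and highest WT mouse and 235, 268 and 297 CPM in Pparg-/-epi mice. WT replicate 2 was again the highest mouse, and 5 of 6 Pparg-/-epi mice lay above the WT median. Its log2 fold change was -0.03 (SE 0.17, adjusted p = 0.938). It was 0.15 without WT replicate 2 and 0.01 without Pparg-/-epi replicate 12. Mice of the b haplotype, C57BL/6 among them, make no I-E alpha chain, so H2-Eb1 RNA there does not become surface I-E. The alpha chain genes H2-Ea and H2-Ea-ps and the beta chain gene H2-Eb2 are not listed in the table.

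The peptide editor genes had the lowest log2 fold changes of the 10. H2-DMa was 32.0, 40.8 and 57.3 CPM in the lowest, median and highest WT mouse and 28.7, 33.5 and 38.7 CPM in Pparg-/-epi mice. H2-DMb1 was 22.5, 27.7 and 35.4 CPM in WT and 18.7, 22.1 and 25.9 CPM in Pparg-/-epi mice. For each gene all 6 Pparg-/-epi mice were below the WT median. Below every WT mouse were 2 Pparg-/-epi mice for H2-DMa and 3 for H2-DMb1. Fitted log2 fold changes were -0.29 for H2-DMa (SE 0.14, adjusted p = 0.188) and -0.33 for H2-DMb1 (SE 0.12, adjusted p = 0.0866), so neither passed the test. The 95% interval of H2-DMb1, from -0.60 to -0.07, did not hold 0, but the adjusted p stayed between 0.0511 and 0.321 in all alternative fits. H2-DMb1 has a close copy beside it, H2-DMb2, whose transcripts hold 15.8% of the 75-base stretches of H2-DMb1, and reads that lie wholly in such stretches may be left out of the counts of both, since multi-mapped reads were not counted. Its partner H2-DMa has 7.46% of such stretches in common with a neighbour, Brd2.

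Ciita was 15.3, 19.8 and 46.8 CPM in the lowest, median and highest WT mouse and 10.4, 20.9 and 25.3 CPM in Pparg-/-epi mice. WT replicate 2 was the highest and Pparg-/-epi replicate 12 the lowest mouse, and the medians lay close together. Its log2 fold change was -0.24 (SE 0.29, adjusted p = 0.639), and 0.07 without WT replicate 2. Cd86 was 7.62, 11.3 and 18.3 CPM in WT and 8.84, 12.7 and 22.6 CPM in Pparg-/-epi mice. The top Cd86 value was that of Pparg-/-epi replicate 12, the mouse with the least Ciita. The log2 fold change of Cd86 was 0.14 (SE 0.25, adjusted p = 0.758), and -0.06 without Pparg-/-epi replicate 12.

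Itgax had the largest fitted difference of the 10 genes. It was 12.4, 16.5 and 23.8 CPM in the lowest, median and highest WT mouse and 18.6, 23.1 and 30.0 CPM in Pparg-/-epi mice. All 6 Pparg-/-epi mice were above the WT median, 2 of them above every WT mouse, and the overlap of the groups came from WT replicate 2 alone, since the remaining WT mice reached 17.7 CPM. Its log2 fold change was 0.50 (SE 0.16, adjusted p = 0.0526), with a 95% interval from 0.15 to 0.85, so Itgax did not pass. Without WT replicate 2 it was 0.62 (adjusted p = 0.00962), which counts as altered. Over all alternative fits the log2 fold change ran from 0.35 to 0.62 and the adjusted p from 0.00962 to 0.417. The adjusted p was also under 0.05, with a log2 fold change under the fold required, in DESeq2 (0.50, adjusted p = 0.0253), with sex as a covariate (0.465, adjusted p = 0.0451) and without Pparg-/-epi replicate 12 (0.56, adjusted p = 0.0389). Itgax has 5.01% of its 75-base stretches in common with Itgad, a related integrin gene.

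**Figure D2:**
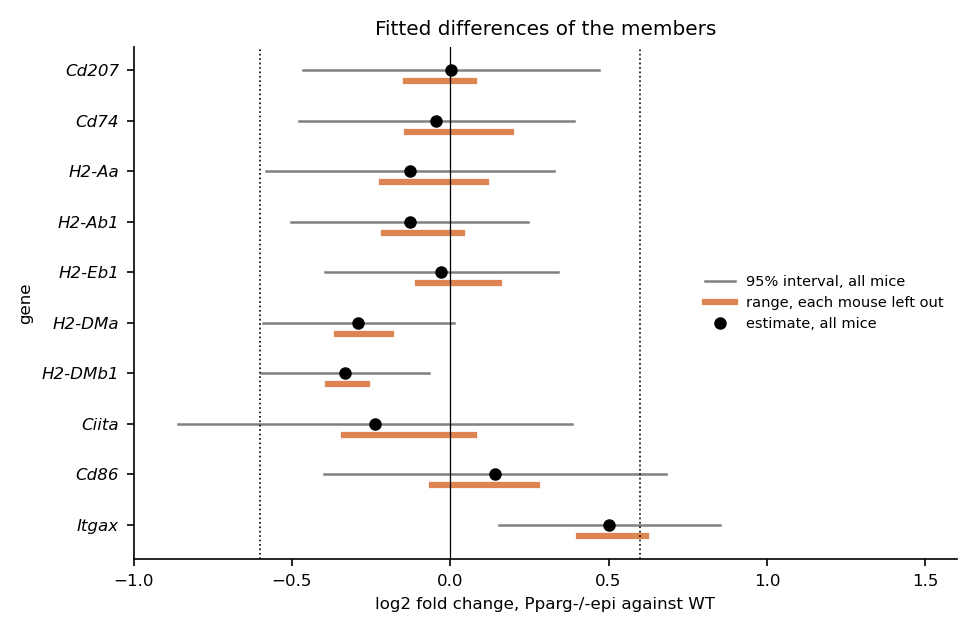
Log2 fold change of each of the 10 genes in Pparg-/-epi against WT mice (points), with 95% intervals (grey lines, n = 6 mice a group) and the range of the estimate when each mouse is left out in turn (orange bars). Dotted lines mark 0.6 and -0.6, and only the bar of Itgax reaches past a dotted line, at 0.62 without WT replicate 2.

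Levels between genes can be compared only per length, as RPKM, which are CPM divided by the exon length in kilobases. Cd74 was at the top with 581 ± 162 RPKM (mean ± SD, n = 12 mice), rank 118 among all genes of the table. H2-Ab1 followed with 330 ± 77.6 RPKM, H2-Aa with 322 ± 98.1 RPKM and H2-Eb1 with 162 ± 37.0 RPKM. Then came Cd207 with 32.3 ± 8.17 RPKM, H2-DMa with 22.7 ± 4.71 RPKM and H2-DMb1 with 19.4 ± 3.59 RPKM. Cd86 with 5.13 ± 1.66 RPKM, Itgax with 5.03 ± 1.29 RPKM and Ciita with a mean of 3.60 RPKM and a range from 1.73 to 7.80 RPKM were the lowest. Cd74 exceeded H2-Ab1 in 12 of 12 mice, H2-Aa exceeded H2-Eb1 in 12, H2-Eb1 exceeded Cd207 in 12 and H2-DMa exceeded H2-DMb1 in 12. The order was not the same in all mice between H2-Ab1 and H2-Aa, where H2-Ab1 was higher in 7 of 12, nor between Cd86 and Itgax, where Cd86 was higher in 6 of 12. Cd207 exceeded H2-DMa in 10 of 12 mice, and Itgax exceeded Ciita in 10 of 12.

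Per length, the partner chains kept close to each other. The ratio of H2-Aa to H2-Ab1 lay between 0.798 and 1.12 in WT and between 0.874 and 1.08 in Pparg-/-epi mice. That of H2-DMa to H2-DMb1 lay between 1.04 and 1.28 in WT and between 1.04 and 1.35 in Pparg-/-epi mice. The ratio of Cd74 to Cd207 varied far more, from 12.9 to 35.1 in WT and from 12.6 to 26.3 in Pparg-/-epi mice. It was highest in WT replicate 2 and next highest, at 27.8, in WT replicate 1. In Pparg-/-epi replicates 7, 8 and 9 it was 26.3, 22.4 and 21.6, and in replicates 10, 11 and 12 it was 14.3, 15.8 and 12.6. So the class II genes and the Langerhans cell lectin did not follow the same mice.

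The same can be read from log2 CPM after the mean of each group is taken away. Over the 12 mice, Pearson's r between any pair of Cd74, H2-Aa, H2-Ab1, H2-Eb1, H2-DMa and H2-DMb1 was 0.74 to 0.98, with a median of 0.86 over 15 pairs. Cd207 had an r of 0.04 to 0.25 with these 6 genes, 0.56 with Cd86 (0.66 without WT replicate 2) and -0.35 with Ciita (-0.47 without that mouse). Ciita had an r of 0.68 to 0.83 with them, Itgax 0.50 to 0.71 and Cd86 0.38 to 0.52. Part of this rests on WT replicate 2. Without that mouse the median r among the 6 was 0.76, with a range from 0.39 to 0.92, and the median r with them was 0.46 for Ciita, 0.31 for Itgax, 0.24 for Cd207 and 0.19 for Cd86. The range with them was then 0.14 to 0.39 for Cd207, so its highest values lay near the lowest among the 6. These values are a description over mice that share the library method, and no p is given.

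Among the 13701 genes with a mean log2 CPM above 0, the 5 outside the 10 whose pattern over the 12 mice was most like that of Cd207 included Ergic2 (Pearson's r = 0.96), Ube2w (0.93), Cops5 (0.93) and Eif3e (0.93), again with group means taken away. Without WT replicate 2 these r were 0.93 to 0.96. None of these is a marker on the lists used here, and none was altered. The 5 most like Cd74 included Laptm5 (0.96), Grap2 (0.95), Rac2 (0.93) and Kcnip2 (0.93). Without WT replicate 2 these fell to 0.92 for Laptm5, 0.82 for Grap2, 0.77 for Rac2 and 0.65 for Kcnip2. Laptm5, Grap2 and Rac2 are genes of blood-derived cells. Of these 4, Rac2 was altered, with a log2 fold change of 1.15 (SE 0.34, adjusted p = 0.0377), and it passed in only 2 of the 12 fits that left out 1 mouse, those without WT replicate 2 and without Pparg-/-epi replicate 12.

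The 5 H2 genes lie within 194 kb of chromosome 17, from H2-DMa at 34122832 to the end of H2-Eb1 at 34316674. The table lists 6 other genes in that interval, H2-DMb2, Psmb9, Tap1, Psmb8, Tap2 and H2-Ob, of which 0 were higher and 0 lower by the rule for altered genes. Their log2 fold changes had a median of 0.06.

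Promoters of class II genes share short motifs, among them the Y box, a CCAAT box in reverse that the factor NF-Y binds, next to an X box bound by RFX. RefSeq windows of 300 bases around the gene start, on GRCm38.p6 (mm10), were found for 6 of the 10 genes: Cd207, Itgax, H2-DMa, which has windows at 2 starts, H2-DMb1, H2-Aa and H2-Eb1. None was found for Cd74, H2-Ab1, Ciita or Cd86. The Y box letters CTGATTGG, on either strand, occur in H2-Aa, beginning 51 bases before the start, and in H2-Eb1, beginning 62 bases before it. Of all 32851 promoter windows of that length, 4.10% hold these letters. The shorter CCAAT, on either strand, is part of the Y box, so their matches overlap, and 37.4% of all windows hold it. It occurs in H2-Aa, H2-Eb1, H2-DMb1, Itgax and 1 of the windows of H2-DMa, and in H2-DMb1 it lies 61 bases before the start. A match is a description of letters and not a bound site.

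The 250 bases before the start are printed for the H2 genes whose motif lies in the last 70 bases, since H2-Aa, H2-Eb1 and H2-DMb1 varied together over the mice. They are chr17:34287824-34288073 (minus strand) for H2-Aa, chr17:34305617-34305866 (plus strand) for H2-Eb1 and chr17:34152941-34153190 (plus strand) for H2-DMb1. Capitals mark the Y box and CCAAT letters and, in H2-Eb1 and H2-DMb1, the longest stretch with all 4 kinds of base that the windows of any pair of these H2 genes share.
H2-Aa: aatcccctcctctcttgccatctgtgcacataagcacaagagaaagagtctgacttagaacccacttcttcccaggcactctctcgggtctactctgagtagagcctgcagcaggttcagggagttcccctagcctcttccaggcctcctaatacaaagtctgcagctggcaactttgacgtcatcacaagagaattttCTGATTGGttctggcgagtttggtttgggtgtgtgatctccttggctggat
H2-Eb1: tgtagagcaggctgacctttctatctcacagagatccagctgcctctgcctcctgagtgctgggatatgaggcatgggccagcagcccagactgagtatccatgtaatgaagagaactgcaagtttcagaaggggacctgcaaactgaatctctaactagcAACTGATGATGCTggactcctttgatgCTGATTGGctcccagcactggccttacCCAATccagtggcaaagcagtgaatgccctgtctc
H2-DMb1: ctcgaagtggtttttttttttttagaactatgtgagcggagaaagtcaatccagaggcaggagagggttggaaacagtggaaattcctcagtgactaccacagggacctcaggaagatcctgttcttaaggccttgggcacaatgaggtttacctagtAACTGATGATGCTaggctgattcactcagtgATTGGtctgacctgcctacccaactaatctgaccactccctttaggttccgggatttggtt
The shared stretch, AACTGATGATGCT, is 13 bases long and begins 89 bases before the start of H2-Eb1 and 92 bases before that of H2-DMb1. It occurs in 3 of the 32851 windows. It was looked for after the values had been seen.

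Genes around class II presentation were counted by list. Among the other class II chains and editors, 3 of 6 are listed and none was altered, H2-DMb2 and H2-Oa being the most abundant per length. Among 11 factors of class II promoters none was altered, and their median log2 fold change was -0.01. Nfyc, a subunit of NF-Y, had a log2 fold change of -0.01. Among 11 genes for endosomal proteases, their inhibitors Cst3 and Cst7 and the reductase of the pathway, with a median log2 fold change of 0.44, the protease gene Ctsc was higher, with a log2 fold change of 0.97 (SE 0.24, adjusted p = 0.0176), and none was lower. Ctsc was 32.0 to 81.6 CPM in WT and 72.5 to 122 CPM in Pparg-/-epi mice. It did not pass in females alone, where it was at 1.08 (adjusted p = 0.111), nor against the WT mice of other breeding numbers, where it was at 0.40 (adjusted p = 0.363). The most abundant of that list, Cst3 and Ctsd, had log2 fold changes of -0.35 (adjusted p = 0.0793) and 0.59 (adjusted p = 0.0498), so that Ctsd missed only the fold required. So did Ctsl, at 0.47 (adjusted p = 0.00351), with groups that did not overlap. Ctsd has 31.3% and Ctsl 24.6% of its 75-base stretches in common with other genes. The counts of both are uncertain if these lie elsewhere in the genome, which was not checked.

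Of 5 listed genes of class II turnover, March8, a ubiquitin ligase whose targets include class II molecules, was lower. Its level was 115 to 160 CPM in WT and 74.9 to 92.0 CPM in Pparg-/-epi mice, so the groups did not overlap. The log2 fold change was -0.66 (SE 0.09, adjusted p = 8.43e-04), and it was short of the fold required without WT replicate 4, at -0.60, and against the WT mice of other breeding numbers, at -0.51. Il10 is not listed, and Il10rb, a receptor chain for it, had a log2 fold change of 0.15.

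Of 15 listed genes for the interferon gamma receptor, its kinases and the response to it, 2 were higher and none was lower, and the most abundant were the receptor chain Ifngr1 and the kinase Jak1, not altered. Cxcl9, a chemokine for activated T cells, was 4.41 to 17.5 CPM in WT and 11.2 to 108 CPM in Pparg-/-epi mice, which gives 2.18 as log2 fold change (SE 0.54, adjusted p = 0.0173), and 1.42 without Pparg-/-epi replicate 9, where it still passed. In females alone Cxcl9 was at 2.82 and did not pass (adjusted p = 0.0605). Nor did it pass against the WT mice of other breeding numbers, at 2.41 (adjusted p = 0.180). Cxcl10, a related chemokine, had a log2 fold change of 2.07 (SE 0.52, adjusted p = 0.0186), and 1.64 without Pparg-/-epi replicate 9, where it did not pass. Nor did Cxcl10 pass in females alone, at 2.21, or against the WT mice of other breeding numbers, at 2.26. Ifng itself is not listed. Pparg-/-epi replicate 9 had the highest summed level of these genes, 1477 CPM, while the remaining Pparg-/-epi mice had 799 to 895 CPM. That mouse was below the median of its group for Cd74, H2-Ab1 and H2-DMa and above it for H2-Aa, H2-Eb1, H2-DMb1 and Ciita, and a relation to these genes was not tested.

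**Figure D3:**
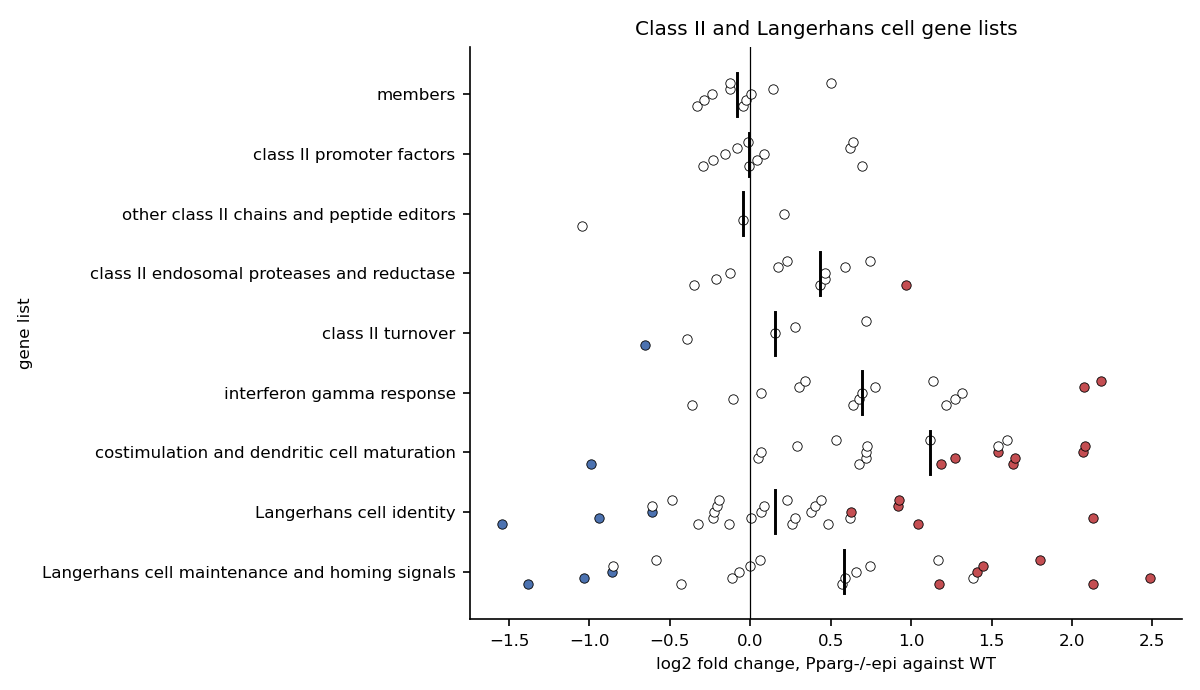
Log2 fold change of each listed gene (points) in Pparg-/-epi against WT mice for the 10 genes (members) and 8 lists around them, with filled points for altered genes (red higher, blue lower) and black bars for list medians. The 10 genes stay between -0.33 and 0.50, while the maturation list has a median of 1.11. Fcer1a is left out of the plot, since its WT counts were 0 or 1.

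Of 19 listed genes of costimulation and of dendritic cell maturation, 7 were higher and 1 was lower, where 5.19% of all genes were higher and 5.08% lower. The lists were not chosen blind to these data, so nothing is read from that comparison. Their median log2 fold change was 1.11. Marker lists of other cells, described below, had medians of 1.08 (endothelial), 0.74 (monocyte), 2.74 (neutrophil) and 1.68 (mast cell and basophil), and their part in the maturation values was not tested. Ccr7, the receptor that leads mature dendritic cells to the lymph node, was 0.126 to 0.852 CPM in WT and 1.04 to 3.01 CPM in Pparg-/-epi mice. These groups did not overlap, and the log2 fold change of Ccr7 was 2.07 (SE 0.46, adjusted p = 0.00968). Il12b, a subunit of interleukins 12 and 23, had a log2 fold change of 2.08 (SE 0.47, adjusted p = 0.0110). Ccl22, a chemokine of mature dendritic cells, rose by 1.64 on the log2 scale (SE 0.29, adjusted p = 0.00297). Traf1, a signal adaptor, had a log2 fold change of 1.19 and Tnfrsf9, a costimulatory receptor, one of 1.54. Cacnb3, a calcium channel subunit and the most abundant of the list, had a log2 fold change of -0.99 (SE 0.19, adjusted p = 0.00468). These 6 passed in all 12 fits that left out 1 mouse. Of the 8 altered genes of the list, only Il12b passed in females alone and none against the WT mice of other breeding numbers. Against those WT mice Ccr7 was at 1.65, Il12b at 2.44, Ccl22 at 1.17, Traf1 at 0.84, Tnfrsf9 at 1.41 and Cacnb3 at -0.47. In females alone Ccr7 was at 2.05, Il12b at 2.62, Ccl22 at 1.19, Traf1 at 1.17, Tnfrsf9 at 1.10 and Cacnb3 at -0.86. Fscn1, at 1.63 (adjusted p = 0.0453), and Ccl17, at 1.27 (adjusted p = 0.0430), passed in 1 of 12, the fit without WT replicate 2, with adjusted p up to 0.105 and 0.101 in the others. Marcksl1, next in abundance, did not pass, at 0.72 (adjusted p = 0.118), and Tnfsf4 and Il4i1 are not listed.

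Ccr7, Il12b and Ccl17 were at low levels, as were Ccr6, Fcgr4 and Cd8a of the lists below. Counts of Ccr7 were 2 to 15 in WT mice, beside 20 to 35 in the knockout group. Counts of Il12b were 2 to 10 in WT mice, beside 12 to 26 in the knockout group. Those of Ccl17 were 3 to 17 and 10 to 33. In CPM the groups overlapped for Il12b, at 0.126 to 1.07 CPM in WT and 0.624 to 2.15 CPM in Pparg-/-epi mice. Cells other than Langerhans cells express genes of this list as well, so the list does not say which cells they came from.

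Langerhans cell identity genes went in both directions. Of 28, all listed, 6 were higher, 3 were lower and 19 were not altered, and the median log2 fold change was 0.15. Some of these genes are also on the macrophage, pan leukocyte or mast cell lists. So neither the list nor its sum says which cells the RNA came from. Epcam, an adhesion molecule that Langerhans cells share with keratinocytes and the most abundant of the list, was 160 to 268 CPM in WT and 363 to 428 CPM in Pparg-/-epi mice. The groups did not overlap, and the log2 fold change of Epcam was 1.04 (SE 0.12, adjusted p = 3.00e-04). Mfge8, a secreted bridge to dying cells, had a log2 fold change of 0.92 (SE 0.16, adjusted p = 0.00305), and Ly75, an endocytic receptor, one of 0.92 (SE 0.23, adjusted p = 0.0165). Lower were Ltc4s, the synthase of leukotriene C4, at -1.54 (SE 0.31, adjusted p = 0.00544), and Il1r2, the decoy receptor for interleukin 1, at -0.94 (SE 0.24, adjusted p = 0.0180). These 5 passed in all 12 fits that left out 1 mouse. Against the WT mice of other breeding numbers only Epcam and Mfge8 of them passed, with Ly75 at 0.64, Ltc4s at -0.72 and Il1r2 at -0.54. In females alone Ly75 did not pass either, at 0.96. Ltc4s has 10.2% of its 75-base stretches in common with another gene, so its counts are uncertain.

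Fcer1a, the alpha chain of the high affinity receptor for IgE, had 0 counts in 5 WT mice and 1 count in WT replicate 4, and 17 to 44 counts in the Pparg-/-epi mice. No fold is given against so few counts, and its adjusted p was 3.64e-05. Mast cells and basophils express it as well. Against the floor of 3 counts its value is 3.40 on the log2 scale. The median of the identity list is 0.15 with any value of Fcer1a above it, so this is no check of that median.

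The remaining altered identity genes were near a threshold. Cd24a, at a log2 fold change of 0.63 (adjusted p = 0.0130), had 0.56 to 0.79 with 1 mouse left out, under the fold required without WT replicate 3, 4 or 6 or Pparg-/-epi replicate 11. Tbc1d4, at -0.61 (adjusted p = 0.0284), passed in 5 of 12 such fits, those without WT replicate 1 or 3 or Pparg-/-epi replicate 8, 9 or 12. Ccr6, a chemokine receptor, at 2.13 (adjusted p = 0.0489), passed in 3 of 12, those without WT replicate 1 or 2 or Pparg-/-epi replicate 12.

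Of 22 listed signals that maintain or attract Langerhans cells, 6 were higher and 3 lower, with a median log2 fold change of 0.58. The medians of the endothelial, monocyte and neutrophil lists, given above, were above 0 as well, Ccr2 is also on the monocyte list, and the part of such cells in these values was not tested. Il34, the keratinocyte cytokine on which the Langerhans cell network depends, was 83.1, 126 and 168 CPM in the lowest, median and highest WT mouse and 49.6, 56.4 and 81.1 CPM in Pparg-/-epi mice. All 6 Pparg-/-epi mice were below all WT mice, and the log2 fold change of Il34 was -1.03 (SE 0.19, adjusted p = 0.00399). Bmp7, a growth factor in Langerhans cell differentiation, had a log2 fold change of 1.18 (SE 0.24, adjusted p = 0.00630). Ccl2, a chemokine for monocytes, had one of 2.48 (SE 0.52, adjusted p = 0.00699). Il34, Bmp7 and Ccl2 passed in all 12 fits that left out 1 mouse. They did not pass in females alone, where Il34 was at -1.13 (adjusted p = 0.0511), Bmp7 at 1.21 and Ccl2 at 2.30. Nor did they pass against the WT mice of other breeding numbers, where Il34 was at -0.55, Bmp7 at 0.66 and Ccl2 at 1.49.

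The other altered genes of that list passed in fewer fits. Cxcl14, a keratinocyte chemokine, at -1.38 (adjusted p = 0.0260), did not pass without WT replicate 6 or Pparg-/-epi replicate 9 or 11 (adjusted p up to 0.0608). Il33, at -0.86 (adjusted p = 0.0331), passed in 4 of 12, those without WT replicate 2, 3 or 5 or Pparg-/-epi replicate 7. Ccl20, the ligand of Ccr6, at 1.80 (adjusted p = 0.0384), Cxcr4, at 1.45 (adjusted p = 0.0469), and Ccl19, at 1.41 (adjusted p = 0.0402), each passed in 2 of 12, without WT replicate 2 and without Pparg-/-epi replicate 10. Ccl19 shares 45.3% of its 75-base stretches with other genes, so its counts are uncertain. Cdh1, the cadherin that holds Langerhans cells to keratinocytes, had a log2 fold change of 0.06. Csf2, Tnfsf11 and Ccl21a are not listed.

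Macrophage and conventional dendritic cell markers were highest in the WT mouse with the most Cd74. Of 15 macrophage markers none was altered, and their median log2 fold change was 0.37. Their summed level was 510, 1014, 212, 284, 197 and 130 CPM in WT replicates 1 to 6 and 556, 626, 552, 331, 365 and 363 CPM in Pparg-/-epi replicates 7 to 12, with Lyz2 the most abundant per length. WT replicate 2 had the highest sum, while WT replicate 1 and Pparg-/-epi replicates 7, 8 and 9, next in order, had 677 to 873 CPM of Cd74 and the remaining mice 561 to 880 CPM. The conventional dendritic cell list, with 1 of 13 genes higher (Cd8a, which T cells share) and 1 lower (Irf4), was also highest in that mouse. Its sum was 294 CPM there, 56.0 to 144 CPM in the remaining WT mice and 75.5 to 132 CPM in Pparg-/-epi mice, and Mgl2 was its most abundant gene. Irf4 was 14.0 to 39.2 CPM in WT and 4.47 to 11.0 CPM in Pparg-/-epi mice, which gives -1.63 as log2 fold change (SE 0.27, adjusted p = 0.00176). Summed keratinocyte markers were lowest in WT replicate 2, at 25275 CPM, beside 46103 to 55392 CPM in the remaining WT mice. The part of these cells in the class II values was not tested.

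**Figure D4:**
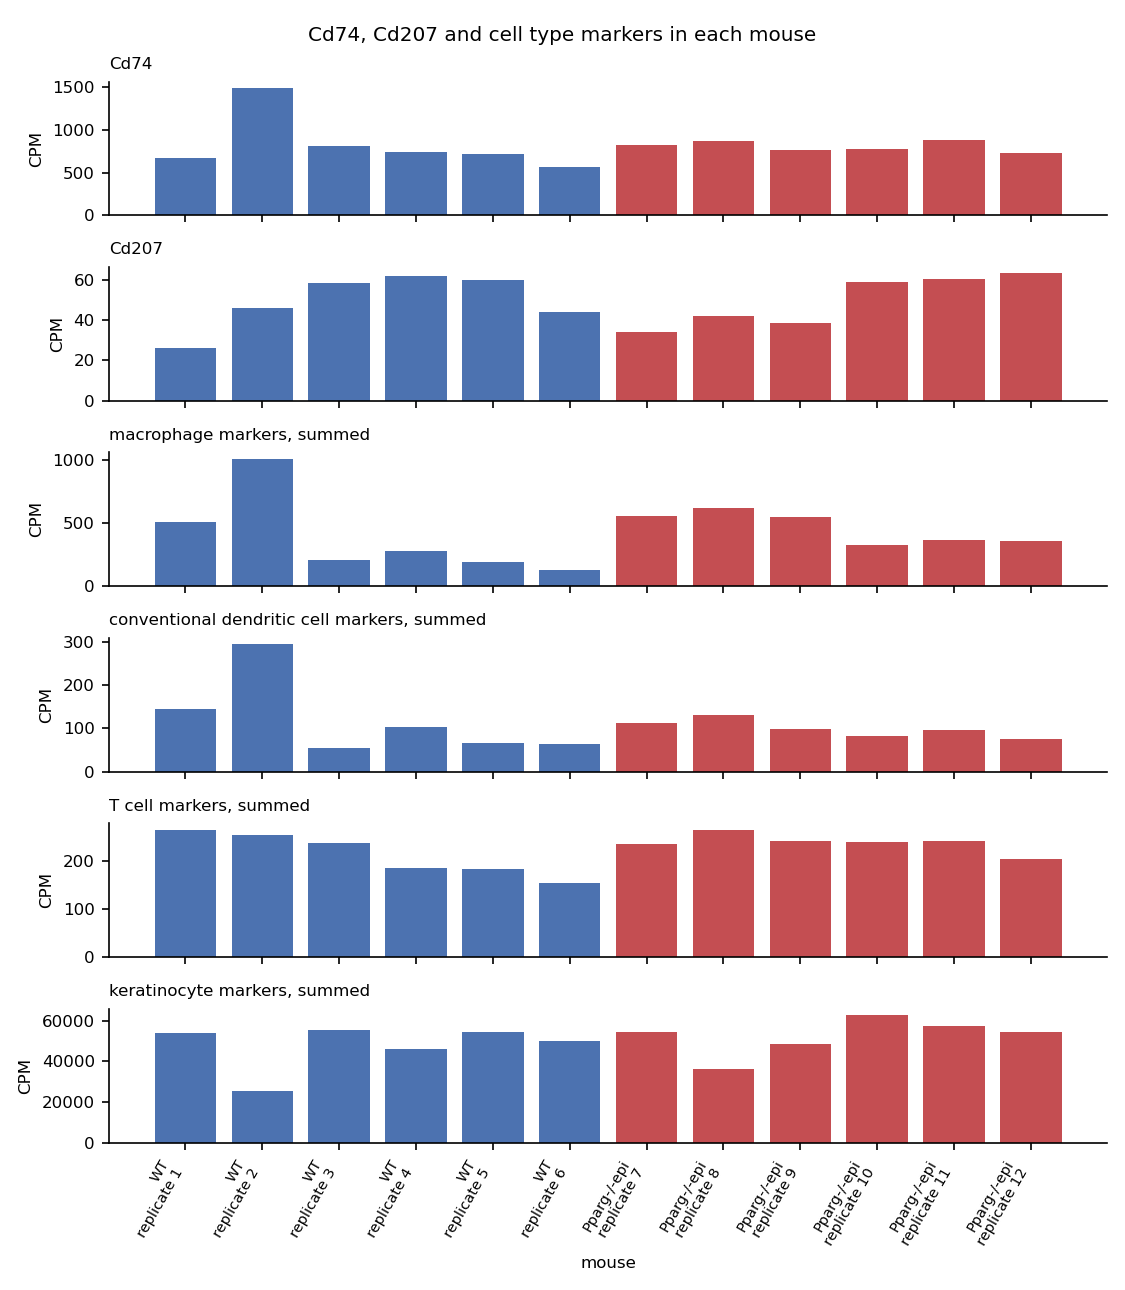
Level in CPM (vertical axes from 0) of Cd74, of Cd207 and of the summed markers of macrophages, conventional dendritic cells, T cells and keratinocytes, with 1 bar for each WT (blue) and Pparg-/-epi mouse (red). WT replicate 2 has the highest bars for Cd74, macrophage and conventional dendritic cell markers and the lowest for keratinocyte markers, but not the highest for Cd207.

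Several mice with low Cd207 had high endothelial markers, and the mouse with the least Cd207 had the most fibroblast markers. WT replicate 1, with the least Cd207, had 34642 CPM of summed fibroblast markers, beside 1031 to 10621 CPM in the remaining WT mice, while 0 of 8 fibroblast markers were altered and Col1a1 was the most abundant. Fibroblast sums were 11077, 11327, 7968, 9472, 5383 and 7907 CPM in Pparg-/-epi replicates 7 to 12, and did not follow the order of Cd207 there, since replicate 10 had more of both than replicate 9. Summed endothelial markers were 75.1, 142, 9.59, 18.5, 38.9 and 8.18 CPM in WT replicates 1 to 6. In Pparg-/-epi replicates 7, 8 and 9, which had the least Cd207 of their group, they were 151, 191 and 157 CPM, while replicates 10, 11 and 12 had 36.8 to 71.0 CPM. WT replicate 6, at 43.8 CPM of Cd207, had few of these markers and breaks that order. Of 8 endothelial markers Emcn was higher, at 1.79 (adjusted p = 0.0340), passing in 5 of 12 fits that left out 1 mouse (WT replicate 1, 2 or 6 or Pparg-/-epi replicate 10 or 12), and Pecam1 was the most abundant. Whether dermal RNA had a part in the Cd207 values was not tested.

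Other blood cell lists are given for the level of the cells around. Of 10 pan leukocyte genes Rac2 alone was altered, and the sum was 427 to 678 CPM in WT and 508 to 647 CPM in Pparg-/-epi mice, with Arhgdib the most abundant. Of 11 listed T cell genes, Cd8a (log2 fold change 2.20, adjusted p = 0.00437) and Icos (1.59, adjusted p = 0.0125) were higher. Cd3e was lower (-0.75, adjusted p = 0.0325), passing in 4 of 12 fits that left out 1 mouse (WT replicate 1, 2 or 6 or Pparg-/-epi replicate 10). The other CD3 complex genes listed, Cd3d (-0.53), Cd3g (-0.47) and Cd247 (-0.83), were not altered but were also below 0, while the list median was 0.43. The T cell sum was 155 to 265 CPM in WT and 205 to 266 CPM in Pparg-/-epi mice. Thy1, the most abundant, carried much of it, at 70.7 to 206 CPM in WT and 118 to 191 CPM in Pparg-/-epi mice. So the sum does not follow the CD3 genes. The constant region genes Trac, Trbc1, Trbc2 and Trdc are not listed. Of 7 listed monocyte genes Fcgr4 was higher (2.16, adjusted p = 0.0376), passing in 5 of 12 such fits (WT replicate 1, 2 or 4 or Pparg-/-epi replicate 10 or 12). The monocyte sum was 11.6 to 74.9 CPM in WT and 37.6 to 119 CPM in Pparg-/-epi mice, with Nr4a1 the most abundant. Of 4 listed plasmacytoid dendritic cell genes Irf7 was higher (1.49, adjusted p = 0.00698). Their sum was 100 to 193 CPM in WT and 146 to 219 CPM in Pparg-/-epi mice. Most of it was Tcf4, the most abundant, at 79.0 to 171 CPM in WT and 107 to 170 CPM in Pparg-/-epi mice. The defining marker Siglech is not listed, so the sum is no measure of these cells alone. Of B cell genes only Jchain was analysed here, at 0.237 to 7.22 CPM in WT and 0.312 to 2.15 CPM in Pparg-/-epi mice, and it was not altered. Ms4a1, Cd79a and Cd79b, which define B cells, another class II bearing type, are not in the table.

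Of 4 listed neutrophil genes, S100a8 (log2 fold change 2.74), S100a9 (2.74) and Cxcr2 (3.55) were higher, and the sum was 2.14 to 13.3 CPM in WT and 37.8 to 54.0 CPM in Pparg-/-epi mice, with S100a9 the most abundant. Ly6g, Retnlg, Mpo, Ngp and Camp, also on that list, are not in the table. The authors count S100a8 and S100a9 among alarmins and saw no significant inflammatory infiltrate in non-lesional skin. Which cells this RNA came from was not tested. Of 9 listed mast cell and basophil genes, 8 were higher, Cpa3, Mcpt4, Cma1, Tpsb2, Kit, Ms4a2, Fcer1a and Hdc, and Mrgprb2 was lower, with Mcpt4 the most abundant and a list median of 1.68. Tpsb2, Hdc and Mrgprb2 passed in 5 of 12 fits that left out 1 mouse, with adjusted p up to 0.0748, 0.0690 and 0.0739. The mast cell sum was 78.4 to 140 CPM in WT and 150 to 277 CPM in Pparg-/-epi mice, and Mcpt8, which marks basophils, is not listed. Of 10 keratinocyte genes Krt14 was higher (log2 fold change 0.98, SE 0.20, adjusted p = 0.00559), and Krt10 was the most abundant. Of 8 adipocyte and 8 skeletal muscle genes none was altered, with Fabp4 and Tnnt3 the most abundant. Adipocyte sums were 8.42 to 658 CPM in WT and 21.0 to 265 CPM in Pparg-/-epi mice. Muscle sums were 12.1 to 10661 CPM in WT and 9.48 to 428 CPM in Pparg-/-epi mice. The part of these cells in the values of the 10 genes was not tested. Of the 49 altered genes of all lists, the 8 that passed against the WT mice of other breeding numbers were Epcam, Cd24a, Mfge8, Fcer1a, Irf4, S100a8, S100a9 and Kit.

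Sex was looked at in the same way. Within WT mice, Cd74 was 561, 744 and 1493 CPM in females and 677, 716 and 815 CPM in males. Cd207 was 43.8 to 61.6 CPM in WT females and 26.3 to 59.9 CPM in WT males. With 3 mice of each sex no test was made, and the sexes overlapped for both genes. A test of whether the genotype difference depends on sex, with edgeR's interaction term in the quasi-likelihood fit, passed for none of the 10 genes at an adjusted p under 0.05, as for 0 of 14533 genes (0%). The likelihood ratio test of that term passed for 0 of the 10 and for 4 of all genes (0.0275%). With an unadjusted p under 0.05 the quasi-likelihood test of that term passed for 1 of the 10, Cd86, against 5.1% of all genes. The difference was 1.02 on the log2 scale (SE 0.45, adjusted p = 0.895), males minus females. Cd86 was 13.7 and 22.6 CPM in the 2 male Pparg-/-epi mice and 8.84 to 13.9 CPM in the 4 females. In WT mice it was 10.0 to 11.4 CPM in the 3 males and 7.62, 15.7 and 18.3 CPM in the 3 females.

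Of the breeding numbers that the labels give, 222 alone is shared between the groups, by WT replicate 2 and Pparg-/-epi replicate 10. These mice had 1493 and 776 CPM of Cd74 and 23.8 and 25.3 CPM of Itgax. They differ in sex as well, and a pair of mice allows no test. RIN was 8.6 in WT replicate 2 and also 8.6 in Pparg-/-epi replicate 7, which had 825 CPM of Cd74.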

How the data were processed

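Epidermal RNA of 12 mice was sequenced. The authors aligned reads to mm10 with STAR 2.5.2b, left out multi-mapped reads, counted reads per gene with featureCounts of Subread 1.5.1 on refGene and removed low genes. The deposited values are raw counts, with a gene length in bases from which RPKM were computed here. Blank rows, 2800 (16.2% of rows), hold no counts and were dropped. Genes were compared with edgeR 4.0.16 (R 4.3.3): TMM factors, glmQLFit and glmQLFTest, genotype as the only term, all 14533 genes, Benjamini-Hochberg adjustment, no further filter. Every adjusted p is from that test unless another is named. The SE is the log2 fold change divided by the square root of F, and 95% intervals use its degrees of freedom. Alternatives were the likelihood ratio test of edgeR, DESeq2 1.42.0, no TMM, a minimum of 10 counts, each mouse left out, females alone, sex, RIN or age as a covariate, WT mice of other breeding numbers and no fold minimum. The members and lists were chosen with earlier results of these data known. Named are all members, altered and the 2 most abundant genes of each list, defining markers not listed, and the 5 genes most like Cd207 and Cd74, except 4 genes not reported singly here, of which those on a list stay in its counts and sums. In lists of other cells only the most abundant gene is named, with the CD3 genes of the T cell list in addition. Sequences are from RefSeq promoters, and shared 75-base stretches from GENCODE transcripts. Whether a shared stretch lies at several places in the genome or in overlapping transcripts of the same place was not checked. Shares are not given for every named gene. Floors cover counting error only. Figures were drawn with matplotlib 3.10.9.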

Additional observations from a re-analysis of the deposited data

Results flagged for a closer look

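Values of a single mouse were set against the rest of its group by the gap to the nearest mouse divided by the range of the group, and compared with Dixon's critical value for groups of this size. Over the 10 genes and the summed lists, 62 groups were looked at and 16 lay beyond it, where chance gives about 1 in 20. These groups are not independent, since members varied together and some lists share genes, so 1 mouse can be counted several times. In WT mice, replicate 2 was the highest for Cd74 (0.728), H2-Aa (0.708), H2-Eb1 (0.687) and Ciita (0.754). It was also the highest WT mouse for the summed class II proteases (0.711), Langerhans cell identity genes (0.825) and conventional dendritic cell genes (0.630), and the lowest for keratinocyte genes (0.692).

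Pparg-/-epi replicate 12 was the highest of its group for Cd86 (0.630). Pparg-/-epi replicate 9 was the highest for the summed class II promoter factors (0.634) and interferon gamma response genes (0.859), and Pparg-/-epi replicate 10 the lowest for Langerhans cell identity genes (0.666). WT replicate 1 was the highest WT mouse for fibroblast genes (0.715) and WT replicate 5 for skeletal muscle genes (0.974). Pparg-/-epi replicate 8 was the highest of its group for adipocyte genes (0.701) and for skeletal muscle genes (0.677).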

How the results depend on the processing

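The count of altered genes, 1493, was 651 in female mice alone and 389 against the WT mice of other breeding numbers, fits with fewer mice, and between 1116 and 2249 with each mouse left out, the highest without WT replicate 2. The WT mice of other breeding numbers are replicates 1 and 2. Of all WT mice, replicate 1 had the highest fibroblast sum, and replicate 2 the highest macrophage and the lowest keratinocyte sum. The number of the 10 genes altered was between 0 and 1 with each mouse left out, 1 being Itgax without WT replicate 2, and 0 in the remaining alternatives. Of 220 alternative values of the 10 genes, 203 kept their sign and their side of the threshold, 1 passed it and 16 changed sign, none of the 16 past the threshold. Among females alone the log2 fold change was -0.21 for Cd207 and -0.28 for Cd86, and against WT mice of other breeding numbers it was -0.041 for Cd86. That alternative also moved Cd207 to 0.46, Cd74 to -0.41, H2-Aa to -0.48, H2-Ab1 to -0.34, H2-Eb1 to -0.30 and Ciita to -0.73, beyond the fold required but with an adjusted p of 0.303. With each mouse left out, it ran from -0.14 to 0.076 for Cd207, -0.14 to 0.19 for Cd74, -0.21 to 0.11 for H2-Aa, -0.21 to 0.036 for H2-Ab1, -0.10 to 0.15 for H2-Eb1, -0.34 to 0.074 for Ciita and -0.059 to 0.27 for Cd86. The cause was not tested. Of 49 altered genes of the other lists, 30 passed in each of the 12 fits that left out 1 mouse, 16 passed in females alone, 8 passed against the WT mice of other breeding numbers, and none changed sign in any alternative. With 6 mice a group, the intervals of the 10 genes reach from -0.86 (Ciita) to 0.85 (Itgax), so a gene that did not pass is not shown to be unchanged.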
